A study of Mus musculus with 23 samples.

Results

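Mouse genes named Zfp followed by a number encode zinc finger proteins, and 229 of the 331 such genes in the annotation were examined here across zygotes and 2-cell embryos. The 229 members were selected on measured values. A gene was taken when its mean FPKM (a fragment count scaled for transcript length and library size, summed over its transcripts) was at least 2 in control zygotes or in control 2-cell embryos. By that rule 40 genes reached the level in zygotes only, 62 in 2-cell embryos only and 127 at both stages, out of 22619 named genes in all. The other 102 Zfp genes lay below it, and 4 of them were listed at 0 in every library. Nearest to the threshold, Zfp382 was taken at 2.02 FPKM and Zfp324 at 2.02 FPKM in control 2-cell embryos, while Zfp28 missed it at 1.98 FPKM there and Zfp174 at 1.90 FPKM in control zygotes.

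The labels give the strain as B6D2F1 (C57BL/6xDBA/2), which by the methods is that of the adult females that gave the oocytes, while the sperm came from C57BL/6 males. Germinal vesicle stage oocytes received siRNA, matured in vitro and were fertilized, and the blastomeres were collected at 14 h (late zygote) or 36 h (late 2-cell) after fertilization by the sample labels. The siRNA was a control (siCtrl) or a mixture against Etv5, an ETS family factor, Mlx, a basic helix-loop-helix factor that binds E-boxes, or Rfx1, a winged helix factor that binds X-boxes. There were 3 libraries in each of the 8 groups except siEtv5 2-cell embryos, which had 2. The labels describe fertilization by incubation with sperm and the methods describe injection of the sperm head, and the collection times in the methods are later. All groups share injection at the germinal vesicle stage and maturation in vitro, so none is an untreated embryo.

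Most Zfp proteins carry a row of C2H2 fingers, each of which can read a few bases of DNA, and many add an N-terminal KRAB domain that recruits the corepressor TRIM28 and, through it, SETDB1 and heterochromatin protein HP1. KRAB zinc finger proteins are known for silencing retroelements and for keeping imprinted methylation through the wave of demethylation after fertilization. The zygote lives on maternal RNA, and the main burst of transcription from the mouse embryo's own genome comes at the 2-cell stage. These libraries do not separate stored RNA from newly made RNA.

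Of the 229 members, 227 matched a coding model in the mm9 annotation. A KRAB box pattern was found in 111 of them and not in 116, against 0.178% of a reduced set of other genes. That set left out names that begin with Zfp, Zscan, Zkscan, Znf, Zbt or Gm or contain Rik. Other zinc finger genes are among those left out, so it is not the share of all other genes. The members had a median of 10 C2H2 fingers and up to 36, and the finger pattern was absent from 10 of them. Missing the pattern does not show that a protein lacks the domain. A total of 94 members lay in 17 runs of 3 or more, with gaps of at most 250 kb between neighbours. The longest run held 15 members on chromosome 17 between 21520712 and 22593656 (mm9), and another held 10 members on chromosome 7 between 24866963 and 25372660 (mm9).

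The promoter sequences bear on these 2 features, the shared position and the factors that were knocked down. RefSeq promoter windows (GRCm38.p6) were found for 189 members, 1 of them by an older symbol. In the 250 bases before the start, on either strand, the E-box CACGTG stood in 17 members (8.99%, against 6.86% of 27025 genes). The ETS letters CCGGAAGT stood in 17 (8.99% against 3.23%) and the X-box half-site letters GTTGCCAT in 0 (against 1.29%). The latter are a half-site in a single exact spelling, and other forms of the X-box were not searched. CACGTG reads the same on both strands, none of the 3 motifs contains another, and a match is only a match of letters. Of the 17 members with an E-box, 7 belonged to the chromosome 17 run, where 14 of the 15 members had a promoter window. The E-box and up to 40 bases on each side, cut at the start, are shown for those 7 because their neighbours share it, with the E-box in capitals and the window's position in GRCm38.p6.
Zfp942 (chr17:21962473-21962558, minus strand): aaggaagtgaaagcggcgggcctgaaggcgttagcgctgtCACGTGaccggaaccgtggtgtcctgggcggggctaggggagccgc
Zfp943 (chr17:21962473-21962558, plus strand): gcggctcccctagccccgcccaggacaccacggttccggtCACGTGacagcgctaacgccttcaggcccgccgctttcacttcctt
Zfp944 (chr17:22361401-22361469, minus strand): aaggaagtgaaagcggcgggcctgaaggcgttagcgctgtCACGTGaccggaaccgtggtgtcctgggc
Zfp758 (chr17:22361384-22361462, plus strand): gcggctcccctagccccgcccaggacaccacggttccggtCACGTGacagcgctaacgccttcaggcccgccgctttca
Zfp947 (chr17:22166003-22166088, minus strand): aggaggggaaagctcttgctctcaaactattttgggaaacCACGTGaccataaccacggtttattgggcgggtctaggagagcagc
Zfp820 (chr17:21845833-21845918, minus strand): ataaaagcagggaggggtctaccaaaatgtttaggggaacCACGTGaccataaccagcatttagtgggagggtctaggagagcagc
Zfp946 (chr17:22424152-22424201, plus strand): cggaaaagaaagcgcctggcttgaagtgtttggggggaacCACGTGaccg
Zfp942 and Zfp943 were read from the same E-box on opposite strands, and so were Zfp944 and Zfp758. The Zfp942 and Zfp944 windows were equal in 69 of 69 bases and the Zfp943 and Zfp758 windows in 79 of 79, with no difference over the bases compared. The Zfp947 and Zfp820 windows were equal in 62 of 86 bases. Zfp708 on chromosome 13, whose product silences a class of retroelements, also had the letters, and the first of its matches is shown because its levels recur below.
Zfp708 (chr13:67098069-67098154, minus strand): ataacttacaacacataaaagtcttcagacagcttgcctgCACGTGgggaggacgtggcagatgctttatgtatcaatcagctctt

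The libraries differed in ways that touch the members. Depth, from coverage and FPKM, was 404 to 991 Mb of aligned bases except in siRfx1 2-cell embryos, at 119 to 174 Mb, where 59 to 74 members were listed at 0 against 7 to 24 elsewhere. Etv5 was 0 to 0.0792 FPKM in siEtv5 zygotes against 0.680 to 2.01 in siCtrl, and 5.55 to 8.98 against 43.7 to 49.3 in 2-cell embryos. Rfx1 was 0.149 to 0.481 FPKM in siRfx1 zygotes against 3.05 to 3.52, and 1.43 to 1.53 against 8.12 to 10.7 in 2-cell embryos. Mlx was 0 to 0.469 FPKM in siMlx zygotes against 1.84 to 4.25, but in siMlx 2-cell embryos it was 0.836, 2.26 and 4.05 against 2.42 to 4.42, so the third library was within the control range. Targets also differed outside their own knockdown. Etv5 was at 6.73 to 12.6 FPKM in siRfx1 2-cell embryos. Rfx1 was at 0.863 to 1.33 in siMlx zygotes, 1.85 to 2.88 in siMlx 2-cell embryos and 4.39 to 4.94 in siEtv5 2-cell embryos, each below the siCtrl range. Mlx spread from 0 to 21.5 in siRfx1 2-cell embryos. Oocyte and zygote markers (10 of 10 genes in the files) summed to 2140 to 4390 FPKM in zygotes. In 2-cell embryos their sum was 356 to 421 in siCtrl, 556 to 576 in siEtv5, 156 to 285 in siMlx, where Zp2 was at 0, and 682 to 820 in siRfx1, where Zp2 and Npm2 were at 0. The 2-cell embryo markers (9 of 9, with Tcstv1 and Tcstv3 at 0 throughout) summed to 52 to 73.6 FPKM in siMlx zygotes, above the 22.8 to 46.9 in siCtrl, 19.2 to 36.5 in siEtv5 and 27.5 to 41.3 in siRfx1 zygotes. In 2-cell embryos the same sum was 530 to 853 in siCtrl, 1680 to 1830 in siEtv5, 115 to 324 in siMlx and 255 to 578 in siRfx1, so the groups differed in these markers. Whether they were at equal points of the 2-cell programme was not tested. Cumulus and granulosa markers (8 listed, with Amh and Ptx3 at 0 in most groups) summed to 0 to 19.3 FPKM and sperm markers (6 listed, Prm1 and Tnp2 at 0 in all) to 0 to 35.1 FPKM. In bulk libraries fewer cells of a kind and less RNA per cell cannot be told apart, and the p-values below measure the spread between libraries, which may be technical.

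Zfp57, the KRAB zinc finger protein that keeps methylation at imprinted loci, dominated the zygote. Its FPKM was 2273, 2623 and 3517 in siCtrl zygotes and 88.2, 82.9 and 91.4 in siCtrl 2-cell embryos. It held 40 to 59.9% of the members' summed FPKM in any zygote library and 0.251 to 3.49% in any 2-cell library. The members together took 1.15 to 1.74% of all FPKM in zygotes and 1.1 to 1.31% in 2-cell embryos. Without Zfp57 the share was 0.651 to 0.774% in zygotes and 1.06 to 1.29% in 2-cell embryos, with no overlap between the stages, while with Zfp57 the stages overlapped. These shares are a description, since they include the siCtrl libraries that chose the members. The rule also took more members for their 2-cell level only (62) than for their zygote level only (40), which favours the 2-cell share.

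After Zfp57, the members with the highest means in siCtrl zygotes were Zfp706 at 297 FPKM, which encodes a small regulator of stem cell self-renewal, Zfp655 at 182, Zfp957 at 162 and Zfp750 at 105, a factor known from epidermal differentiation. Zfp212, Zfp108 and Zfp664 followed at 90.3, 76.9 and 71.4 FPKM. In siCtrl 2-cell embryos the order was led by Zfp296 at 627 FPKM, a pluripotency linked factor, then Zfp707 at 406, Zfp622 at 315, a relative of a ribosome assembly factor, and Zfp706 at 307. Zfp352, a retroposed gene typical of this stage, stood at 126 FPKM and Zfp259, which encodes ZPR1, at 94.5, and they were followed by Zfp821 at 88.7 and Zfp57 at 87.5. These levels chose the members and are a description, shown in the plot of control levels. Between siCtrl zygotes and siCtrl 2-cell embryos, 84 members were higher (37% of 11094 tested genes were) and 64 lower (26.9% of all), and nothing is read from these counts because the same libraries set the membership.

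**Figure D1:**
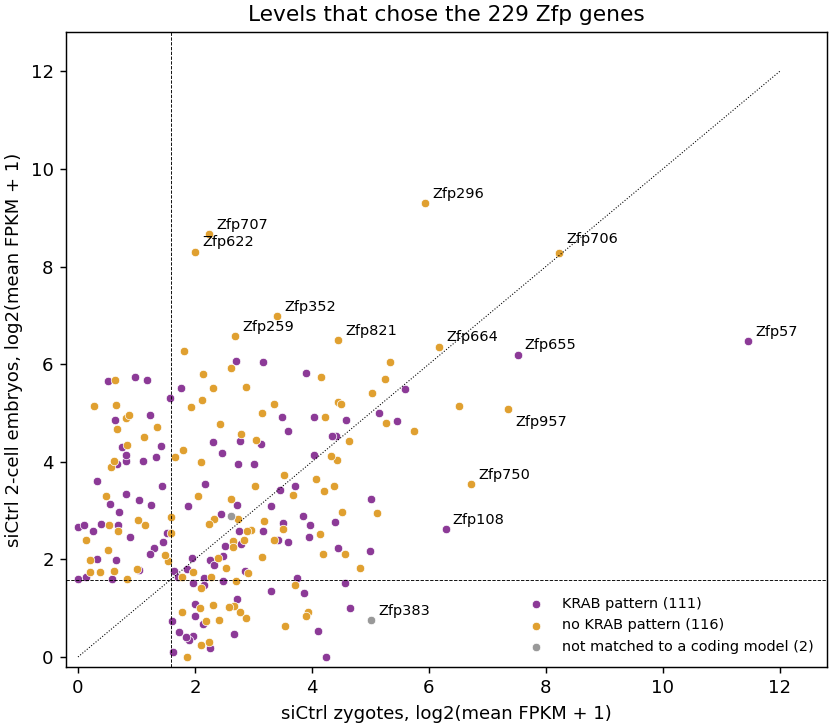
Each point is 1 of the 229 Zfp genes, with its mean in siCtrl zygotes (horizontal) and siCtrl 2-cell embryos (vertical) as log2(FPKM + 1), and colours give the KRAB pattern. Dashed lines mark the level of 2 FPKM that chose the members and the dotted line equal levels; Zfp57 lies far to the right at 2804 FPKM in zygotes and 87.5 FPKM in 2-cell embryos.

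The stage change was tested in the libraries that played no part in the choice. Genes were called at an adjusted p under 0.05 (limma, Benjamini-Hochberg over all genes tested) and a fold above 2, and fold changes are log2 values of rescaled FPKM + 1, which understates the change of low genes. In siEtv5 embryos 83 of the 229 members rose, against 37.9% of all 10887 genes tested, and 44 fell, against 23% of all. A further 12 members did not pass the level filter of that test. In siMlx embryos 63 members rose (35.4% of 10379 genes did) and 79 fell (29.1% did), with 15 not tested. In siRfx1 embryos 34 rose (18.7% of 10096 genes) and 79 fell (29.7%), with 24 not tested. As shares of the 229, the rises were 36.2%, 27.5% and 14.8% and the falls 19.2%, 34.5% and 34.5%, so the rises in siEtv5 were near the background share. The members tested were 217, 214 and 205. Untested members count as not called in these shares, while the all-gene shares are of tested genes. The member shares are therefore lower than shares of the tested members would be. Without the first or the second siEtv5 2-cell library the 127 calls in siEtv5 became 80 or 75, and without the third siRfx1 zygote library the 113 in siRfx1 became 74. The median change of tested members was 0.48 in siEtv5 (0.40 over all genes), -0.11 in siMlx (0.20) and -0.80 in siRfx1 (-0.23), where depth in the 2-cell libraries was lowest and its part was not tested.

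siEtv5 and siMlx embryos share no library, and 56 members rose in both, 67.5% of the rises in siEtv5 and 88.9% of those in siMlx. Over all genes the shares were 72.6% and 81.7%. Another 38 fell in both, which is 86.4% and 48.1% of the members' falls, against 80.3% and 66.4% over all genes. Zfp942 was the single member called in opposite directions by these groups. Across all 3 knockdowns 30 members rose, 36.1% of the rises in siEtv5 (37.9% over all genes), and 32 fell, 72.7% of the falls in siEtv5 (63% over all genes). Zfp598, whose product marks collided ribosomes with ubiquitin, rose in siMlx and fell in siRfx1, and Zfp961 rose in siEtv5 and fell in siRfx1.

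Zfp57 had the largest fall of any member in both siEtv5 and siMlx. Its FPKM was 3524, 1806 and 4224 in siEtv5 zygotes and 73.7 and 79.9 in siEtv5 2-cell embryos. In siMlx it was 2649, 3005 and 2678 against 64.8, 68.2 and 77.9. Every zygote library lay above every 2-cell library in both groups, and the log2 changes were -5.54 ± 0.42 (SE, adjusted p = 0.000128, limma) and -5.67 ± 0.31 (adjusted p = 6.51e-06). In siRfx1 2-cell embryos Zfp57 was 8.57, 100.5 and 121.7 FPKM, a wide spread at low depth, and the change was -6.03 ± 0.94 (adjusted p = 0.00298, limma).

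Zfp750 fell from 204, 113 and 158 FPKM to 6.23 and 6.32 in siEtv5 embryos and from 117, 104 and 104 to 0.820, 2.82 and 3.57 in siMlx embryos. The stages did not overlap, with log2 changes of -4.66 ± 0.33 and -5.45 ± 0.34 (adjusted p = 0.000108 and 8.92e-06, limma). Zfp92, Zfp383, Zfp334, Zfp575, Zfp957, Zfp451, Zfp652 and Zfp69 completed the 10 largest falls by size in siEtv5 among members called in both groups, at -3.91 to -2.76 in siEtv5 and -3.81 to -1.70 in siMlx. Zfp451 encodes a SUMO ligase and Zfp652 a repressor that works with CBFA2T proteins. Zfp383 was listed at 0 in all 3 siRfx1 2-cell libraries and in 1 of the 2 siEtv5 libraries, after 12.1 to 25.7 FPKM in the zygotes of the 3 knockdowns. Exons of Zfp575 overlap Ethe1 on the other strand, and the libraries do not mark strand.

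Zfp622 rose the most. It was listed at 0, 0 and 0.744 FPKM in siEtv5 zygotes and at 176 and 138 in 2-cell embryos, and at 0.949, 2.01 and 1.51 in siMlx zygotes and 1064, 550 and 320 in 2-cell embryos. The log2 changes were 6.83 ± 0.38 and 7.55 ± 0.54 (adjusted p = 6.94e-05 and 1.37e-05, limma), with no overlap of the stages. Zfp707 went from 6.06, 2.43 and 6.43 FPKM to 231 and 195 in siEtv5 and from 0.498, 2.56 and 2.10 to 517, 441 and 366 in siMlx.

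Zfp42, the pluripotency marker also called Rex1, rose from 1.81, 0 and 0.564 FPKM to 51.0 and 80.5 in siEtv5 embryos and from 0.568, 0.196 and 0.723 to 5.52, 12.9 and 14.5 in siMlx embryos. The rise held in both groups, at 5.12 ± 0.49 and 2.68 ± 0.34 (adjusted p = 0.000266 and 0.000194, limma), and the siMlx 2-cell libraries all lay below the siEtv5 ones. The other large rises were those of Zfp352, Zfp54, Zfp948, Zfp599, Zfp800, Zfp143 and Zfp809, at 4.45 to 5.34 in siEtv5 and 2.15 to 4.49 in siMlx. Zfp143 encodes an activator that binds many promoters and Zfp809 the repressor that silences murine leukaemia proviruses.

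**Figure D2:**
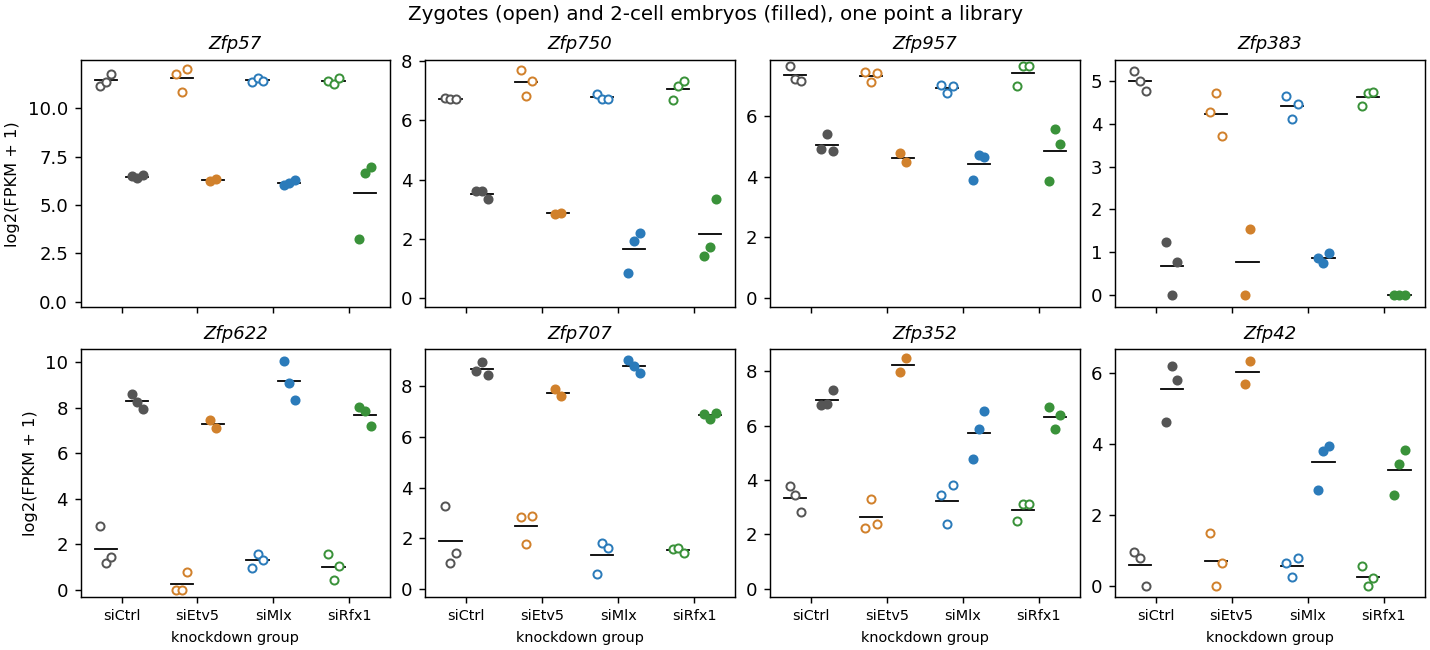
Level of 4 members that fell (upper row) and 4 that rose (lower row), with 1 point for each library as log2(FPKM + 1), open for zygotes and filled for 2-cell embryos, and lines at the group means of these log values. In each panel and each knockdown group, siCtrl included, zygote and 2-cell libraries do not overlap.

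By role, the members are given as counts in short lists, which are a description. Over all genes tested 37.9% rose and 23% fell in siEtv5, and 35.4% rose and 29.1% fell in siMlx. Of the 8 members listed for imprint and retroelement silencing, 4 rose and 1 fell in siEtv5, and 3 rose and 3 fell in siMlx. Zfp57 fell, while Zfp445, which shares the imprint role and was picked after its values were seen, rose by 1.66 ± 0.39 and 1.63 ± 0.31 (adjusted p = 0.00963 and 0.00186, limma) from 2.63 to 6.06 FPKM in siEtv5 zygotes to 14.0 and 21.4 in 2-cell embryos. Zfp932, a silencer of endogenous retroviruses, fell in siMlx by 3.54 on the log2 scale (SE 0.53) and was not called in siEtv5 (-0.48 ± 0.46). Of the 8 listed for pluripotency and the early embryo, 4 rose and 1 fell in siEtv5 and 5 rose and 0 fell in siMlx. Zfp706 was the one that fell, by 1.09 (SE 0.36, adjusted p = 0.0341, limma), and Zfp296 rose in siMlx by 3.16 ± 0.38.

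Of the 8 members linked to RNA, SUMO and ubiquitin, 4 rose and 1 fell in siEtv5 and 3 rose and 2 fell in siMlx. For this list and the next, the all-gene shares are again 37.9% and 23% in siEtv5 and 35.4% and 29.1% in siMlx. Zfp259 rose by 3.71 ± 0.31 and 4.35 ± 0.41 in the 2 groups (adjusted p = 0.000169 and 4.11e-05, limma), while Zfp830, a splicing factor, at 0.61 ± 0.32 and 0.22 ± 0.46, was called in neither. Zfp106, which binds RNA, was called higher in siEtv5 only, at 1.03 ± 0.31 against 0.35 ± 0.33 in siMlx, and this difference was not among those called below. Of the 9 broadly used transcription regulators, 5 rose and 1 fell in each group, among them Zfp639, Zfp644 and Zfp410, which rose by 3.60, 3.04 and 3.30 in siEtv5 and 3.89, 1.95 and 3.33 in siMlx.

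A list drawn up around the corepressor machinery that KRAB proteins use, 19 genes measured and none of them a member, had calls both ways. The list is wider than that machinery and takes in Dppa3, which was among the falls in siMlx. In siEtv5 6 rose and 9 fell, where 37.9% and 23% of all genes did. In siMlx 5 rose and 7 fell, where 35.4% and 29.1% of all genes did. Trim28 rose in all 3 knockdowns, from 6.37 to 11.4 FPKM in siEtv5 zygotes to 55.8 and 55.9 in 2-cell embryos, a change of 2.22 ± 0.31 (adjusted p = 0.00125, limma). Uhrf1 and Dnmt1, which maintain methylation through replication, fell in all 3, by 2.96 (SE 0.32) and 2.03 (SE 0.39) in siEtv5. In the other comparisons without siCtrl 0 of the 19 were called, and against siCtrl Chd4 was called lower in siMlx zygotes.

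In 2 runs, picked after their values were seen, most calls in siEtv5 went 1 way. On chromosome 17, 11 of the 15 members rose and 0 fell in siEtv5, with a median of 2.41, and Zfp54 and Zfp948 led at 5.03 and 4.96. In siMlx 6 of the 15 rose and 4 fell, with a median of 0.52. On chromosome 7, 0 of the 10 members rose and 7 fell in siEtv5 (median -1.41), and in siMlx 1 rose and 7 fell (median -1.70). Zfp575 led the falls there in siEtv5 and Zfp108 in siMlx, and Zfp428 was the one that rose in siMlx. Zfp108 also fell in siEtv5, from 62.5, 65.5 and 38.5 FPKM to 9.37 and 11.9. The 3 members of a run on chromosome 15, Zfp251, Zfp7 and Zfp647, rose in both groups, and the 4 on chromosome 9 that include Zfp809 and Zfp599 split as 3 rises and 1 fall in both. The 12 members of a further run on chromosome 7, between 30553571 and 30920051 (mm9), were mixed, with 4 rises and 2 falls in siEtv5 and 3 rises and 4 falls in siMlx. Over all 94 members in runs, 34 rose and 17 fell in siEtv5, or 36.2% and 18.1% where all genes gave 37.9% and 23%. In siMlx 25 rose and 34 fell, or 26.6% and 36.2% against 35.4% and 29.1%. Of the 94, 87 were tested in siEtv5 and 85 in siMlx, and counting the untested ones lowers these shares. Neighbours share sequence, so they are not independent, and the counts describe these runs only.

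**Figure D3:**
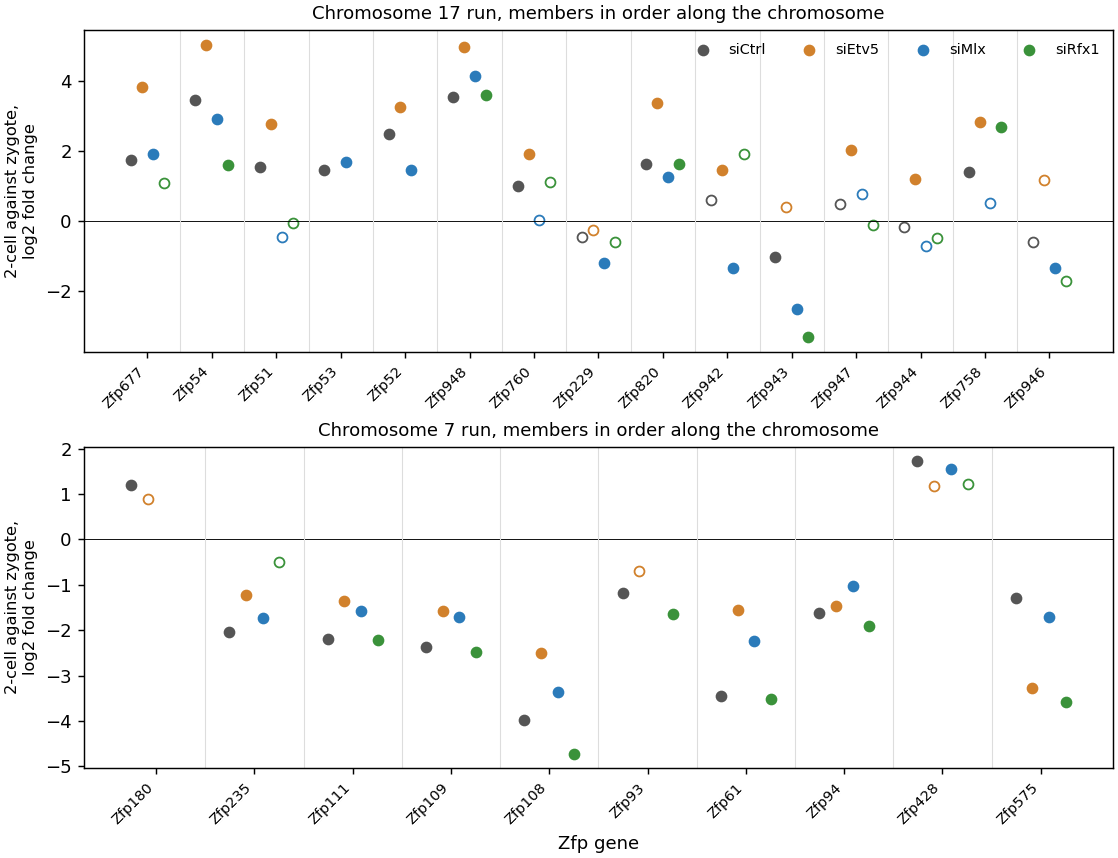
Stage change (2-cell against zygote, log2 fold change) of the members of the chromosome 17 run (15, upper panel) and the chromosome 7 run (10, lower panel) in order along the chromosome, filled where called and open where not, coloured by knockdown group; members that did not pass the level filter in a group have no point. In siEtv5 11 of 15 rose in the upper panel and 7 of 10 fell in the lower one; siCtrl points are a description.

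In siEtv5 44 of the 111 KRAB members rose and 16 fell (median 0.84), or 39.6% and 14.4%, with the rises near the 37.9% of all genes and the falls against 23%. In siMlx 27 rose and 45 fell (median -0.71), or 24.3% and 40.5% against 35.4% and 29.1% of all genes. Of the 111, 104 were tested in siEtv5 and 101 in siMlx, and counting the untested ones lowers these shares. Of the 116 without the pattern 39 rose and 27 fell in siEtv5 (median 0.13), and 36 rose and 32 fell in siMlx (median 0.18). For siCtrl, as a description, the medians were -0.10 with the pattern and 0.16 without it. In the fitted difference between the siMlx and siEtv5 stage changes, 85 of 103 tested KRAB members lay below 0 (median -1.12) against 51 of 111 without the pattern (median 0.15) and a median of -0.11 over all genes. The siRfx1 change set against the same siEtv5 libraries leaned the same way, with 83 of 102 KRAB members below 0 (median -0.96) against 68 of 108 without the pattern (median -0.27) and a median of -0.32 over all genes. These shares are counts and carry no test.

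**Figure D4:**
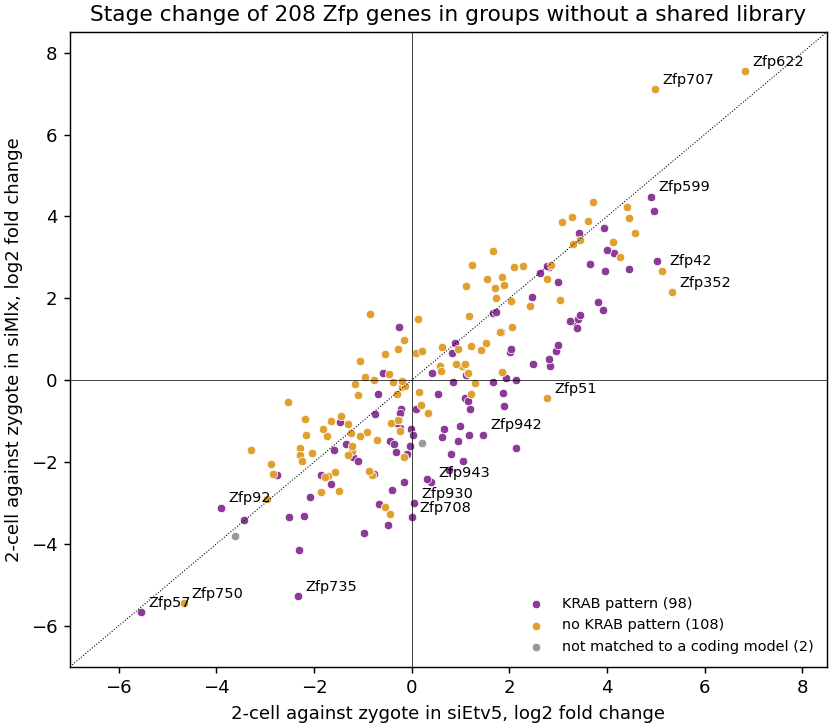
Stage change of the 208 members tested in both siEtv5 (horizontal) and siMlx (vertical), as log2 fold changes, with the KRAB pattern by colour and a dotted line of equal change. Most KRAB members lie below the line, as 85 of 103 lay below 0 in the fitted difference, while those without the pattern lie on both sides.

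Tested gene by gene, the stage change in siMlx differed from that in siEtv5 for 15 members, all lower in siMlx and none higher, among 216 tested. Over all 10652 genes 1.75% were lower and 0.357% higher. The 15 are 6.55% of the 229 members, and 12 of them carry the KRAB pattern. Of the tested members 103 carry it and 111 lack it. Zfp715 did not pass the level filter within siMlx and was tested here only through its siEtv5 level, so its call was favoured by the filter. Without it there were 14, 11 of them with the pattern. By size they were led by Zfp708, Zfp51, Zfp352, Zfp930 and Zfp735, and the others were Zfp943, Zfp715, Zfp873, Zfp616, Zfp942, Zfp952, Zfp933, Zfp738, Zfp600 and Zfp78. Zfp600 and Zfp738 share over 20% of their 50-base words with other genes, so reads could be split among copies. The count rested on single libraries. It was 3 or 0 without the first or the second siEtv5 2-cell library, and 34 without the second siEtv5 zygote library or without the third siMlx 2-cell library. Leaving out the first or the third siEtv5 zygote library gave 2 or 4, each siMlx zygote library in turn 3, 9 and 2, and the first or second siMlx 2-cell library 8 or 5.

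Zfp708 had 8.62, 14.7 and 6.14 FPKM in siEtv5 zygotes and 7.01 and 17.8 in 2-cell embryos, so these stages overlapped. In siMlx it had 28.3, 16.3 and 29.3 FPKM in zygotes and 1.43, 2.07 and 2.80 in 2-cell embryos, with no overlap. The stage changes were 0.02 ± 0.50 and -3.35 ± 0.31, and their difference was -3.25 ± 0.58 (adjusted p = 0.0199, limma). As a description, siCtrl embryos also went down, from 21.7, 8.07 and 10.8 FPKM to 0.378, 1.01 and 3.04.

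Zfp930 had 12.2, 20.4 and 8.31 FPKM in siEtv5 zygotes and 14.8 and 17.2 in 2-cell embryos, while in siMlx it went from 42.5, 29.8 and 44.0 to 3.55, 5.85 and 6.84. The difference was -2.91 ± 0.49 (adjusted p = 0.0161, limma), and the siMlx libraries were above siEtv5 in zygotes and below it in 2-cell embryos. Zfp735 fell in both groups but further in siMlx, from 50.2, 38.0 and 61.6 FPKM to 0.178, 0.693 and 0.902, against 11.6, 35.2 and 13.8 to 3.03 and 3.78 in siEtv5. Zfp51, in the chromosome 17 run, rose from 7.24, 14.4 and 6.02 FPKM to 65.9 and 92.3 in siEtv5, while in siMlx 22.8, 16.0 and 33.2 in zygotes overlapped 10.4, 29.1 and 33.9 in 2-cell embryos.

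Zfp352 rose in both, to 250 and 361 FPKM in siEtv5 2-cell embryos and to 26.3, 57.2 and 91.6 in siMlx, from under 13 FPKM in either group's zygotes. Its difference of -3.003 ± 0.69 (adjusted p = 0.0459, limma) moved with the 2-cell embryo markers, whose sum was 1680 to 1830 FPKM in siEtv5 and 115 to 324 in siMlx 2-cell embryos. That sum moved the same way beside each of the 15 differences, and its part in them was not tested. The Zfp942 and Zfp943 pair, which share an E-box, were both among the 15. Zfp942 had 8.97, 12.3 and 12.9 FPKM in siEtv5 zygotes and 31.3 and 49.7 in 2-cell embryos, and 20.5, 22.4 and 26.2 falling to 8.10, 12.5 and 13.9 in siMlx. Zfp943 had 6.83, 7.41 and 5.75 FPKM then 10.9 and 10.9 in siEtv5, and 14.5, 20.03 and 17.9 then 3.42, 2.25 and 3.69 in siMlx. Their differences were -2.64 ± 0.45 and -2.76 ± 0.43 (adjusted p = 0.0163 and 0.0114, limma).

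The same letters were in Zfp708 and Zfp933, so 4 of the 15 had an E-box in the window, and the tested members among the 17 with an E-box had a median difference of -1.84. The median was -0.47 for members with a promoter window, -1.12 for KRAB members and -1.75 for the chromosome 17 run. That run supplied 7 of the 17, so the E-box median and the run median rest in part on the same members. The parts of position and of the E-box were not tested. For the second pair, Zfp944 and Zfp758, whose windows match the first, the changes were 1.20 and 2.82 in siEtv5 and -0.71 and 0.52 in siMlx, and neither difference was called. A match of letters gives no sign of binding.

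The stage change in siRfx1 differed from that in siEtv5 for 9 members of 212 tested, 7 lower and 2 higher, against 2.51% lower and 1.01% higher over all 10605 genes. Without the rescaling of libraries the split was 31 lower and 1 higher, and without single libraries the count ran from 0 to 33. It was 0 without any 1 of the 2-cell siEtv5 libraries, the third siEtv5 zygote library or the first or second siRfx1 zygote library, 2 without the first siEtv5 or the third siRfx1 zygote library, and 21, 33 and 27 without each siRfx1 2-cell library in turn. The 7 that were lower were Zfp943, Zfp708, Zfp54, Zfp30, Zfp160, Zfp938 and Zfp715. Zfp30 and Zfp715 did not pass the level filter within siRfx1 and were tested only through their siEtv5 level, which favours such a call. The other 5 carry the KRAB pattern, which 102 of the tested members carry and 108 lack. Zfp943 was listed at 0, 0 and 1.53 FPKM in siRfx1 2-cell embryos after 13.5, 11.8 and 9.24 in zygotes, and its difference was -3.38 ± 0.61 (adjusted p = 0.0196, limma). Zfp30 was listed at 0.497, 0 and 0 and Zfp160 at 0, 0.598 and 0 in these libraries, which had 119 to 174 Mb. Depth moved with these values and its part was not tested.

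The 2 that were higher were Zfp652 and Zfp609, and neither has the pattern. Zfp652 was 11.6, 13.5 and 16.0 FPKM in siRfx1 zygotes and 24.9, 78.4 and 19.4 in 2-cell embryos, while in siEtv5 it went from 23.4, 12.5 and 20.6 to 3.27 and 1.23. The difference was 4.20 ± 0.76 (adjusted p = 0.0196, limma), and the stages did not overlap in either group, though the siRfx1 change alone, 1.02 ± 0.55, was not called. Zfp609, a partner of the Integrator complex, was 2.95 to 3.95 FPKM in siRfx1 zygotes and 23.2, 18.9 and 12.1 in 2-cell embryos, against 4.16 to 8.38 and then 6.69 and 6.67 in siEtv5, a difference of 2.35 ± 0.55 (adjusted p = 0.0466, limma). The oocyte and zygote markers were also highest in siRfx1 2-cell embryos, at 682 to 820 FPKM against 556 to 576 in siEtv5, and their part in both differences was not tested.

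**Figure D5:**
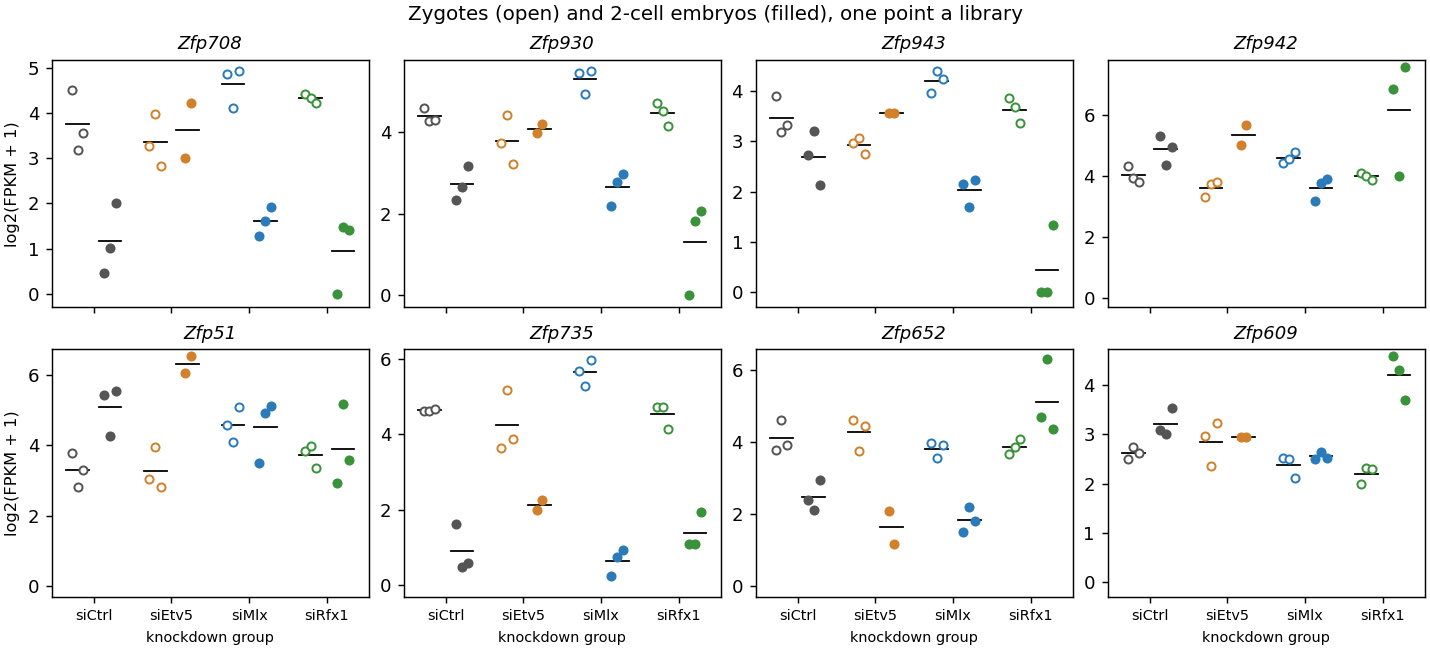
Levels of 8 members whose stage change differed between siMlx or siRfx1 and siEtv5, with 1 point for each library as log2(FPKM + 1), open for zygotes and filled for 2-cell embryos, and lines at the group means. Zfp708 and Zfp930 overlap between stages in siEtv5 and fall in siMlx, and the Zfp652 2-cell libraries lie above the zygote libraries in siRfx1 and below them in the other groups.

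Within a stage no member was called between the knockdown groups, though some alternatives made calls. With a replicate block siMlx against siEtv5 gave 4 members in zygotes and 26 in 2-cell embryos, and with all groups in a single fit 7 in 2-cell embryos, where siRfx1 against siEtv5 then gave 61. In zygotes siMlx against siEtv5 gave 0 members (limma, 52 at an unadjusted p under 0.05) and 0.0114% of 8792 genes. The lowest p-values were those of Zfp960, at 49.5, 42.8 and 57.2 FPKM in siMlx and 8.72, 25.3 and 8.90 in siEtv5 (2.05 ± 0.40, adjusted p = 0.123, limma), and of Zfp943 (1.42 ± 0.29, adjusted p = 0.123, limma). Neither pair of groups overlapped, though Zfp960 shares 81.9% of its 50-base words with other genes, mostly Zfp97. In FPKM as deposited, without the rescaling used in the fits, every siMlx library lay above every siEtv5 library for 39 of 184 tested members. Over all tested genes 4.73% did so. Every siMlx library lay below for 23 of the 184, against 14.1% of tested genes. These counts are 17% and 10% of the 229 members, untested ones included. Differences in library scale were left in such counts, and their part was not tested. Of the 39, 34 carry the KRAB pattern, and of the 23, 1 does. Among tested members with a coding model, 89 carry it and 93 do not. The KRAB median was 0.60 and the median without the pattern -0.22. The 2-cell embryo markers were higher in the same siMlx zygotes, at 52 to 73.6 FPKM against 19.2 to 36.5 in siEtv5, and their part was not tested. For siRfx1 against the same siEtv5 zygotes the medians were 0.38 and -0.12. Without the second siEtv5 zygote library 29 members were called.

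In 2-cell embryos siMlx against siEtv5 gave 0 members called (limma, 36 at an unadjusted p under 0.05) and 0.0283% of 10596 genes. In FPKM as deposited, every siMlx library lay below every siEtv5 library for 79 of 203 tested members (29.9% of tested genes). Every siMlx library lay above for 12 (12.7%). Of the 229 members, untested ones included, these are 34.5% and 5.24%. Of the 79, 48 carry the KRAB pattern, where 98 of the tested members carry it and 104 lack it. The medians were -0.55 with the pattern and -0.05 without. Zfp715 had 1.12, 1.36 and 1.38 FPKM in siMlx and 10.6 and 12.6 in siEtv5, and with Zfp42 it had the lowest p-values (-2.24 ± 0.38 and -2.28 ± 0.38, adjusted p = 0.109 for both, limma). The siEtv5 2-cell libraries number 2, and the 2-cell embryo markers moved in the same direction.

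siRfx1 against siEtv5 gave 0 members in zygotes (limma, 20 at an unadjusted p under 0.05) and 0.0113% of 8829 genes, with Zfp703 and Zfp58 at the lowest p-values. Zfp703, a transcriptional cofactor, was 10.6, 7.43 and 9.42 FPKM in siRfx1 and 29.96, 16.3 and 26.4 in siEtv5 (-1.27 ± 0.31, adjusted p = 0.61, limma), and Zfp58 was 33.2, 36.0 and 22.4 against 12.9, 19.9 and 13.1. Both pairs were apart. In 2-cell embryos 0 members were called (limma, 35 at an unadjusted p under 0.05) and 0% of 10144 genes. In FPKM as deposited, 95 of 184 tested members were lower in every siRfx1 library (38.6% of tested genes) and 9 were higher (5.45%). Of the 229 members, untested ones included, these are 41.5% and 3.93%. Zfp867 and Zfp524 were listed at 0 in all 3 siRfx1 libraries, against 4.15 and 3.69 FPKM and 4.96 and 3.25 in siEtv5. They had the lowest p-values but passed the level filter only through the siEtv5 libraries, so no p is given.

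The comparisons with siCtrl were called by the same limma rule but are given as a description only. The siCtrl levels chose the members, so nothing is read from these calls and counts. In siMlx zygotes 12 members were higher and 1 lower, where 1.13% and 1.02% of 8934 genes were. The higher ones included Zfp960, Zfp51, Zfp97, Zfp932 and Zfp575, at log2 differences of 1.41 to 1.64, and the lower one was Zfp598, at 13.3, 10.1 and 9.02 FPKM against 25.9, 31.2 and 37.5. Of the 12, 10 carry the KRAB pattern, which 90 of the tested members carry and 94 lack. Over 20% of the 50-base words are shared with other genes in 6 of the 12. Zfp932 was 72.0, 65.1 and 85.9 FPKM against 39.8, 28.2 and 25.7, and Zfp51 22.8, 16.0 and 33.2 against 12.7, 6.01 and 8.91. The 2-cell embryo markers were 52 to 73.6 FPKM in these siMlx zygotes against 22.8 to 46.9 in siCtrl, and their part was not tested. Without the second or the third siCtrl zygote library, or the first siMlx one, the count was 0, and it was 3 without the first siCtrl library, 1 without the third siMlx library and 17 without the second siMlx library.

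In siRfx1 2-cell embryos 3 members were higher and 1 lower, where 2.12% and 1.45% of 10302 genes were, and without rescaling 1 was higher and 17 lower. Zfp652 was 24.9, 78.4 and 19.4 FPKM against 4.23, 3.32 and 6.64 in siCtrl, Zfp710 17.4, 19.7 and 37.3 against 4.45, 5.58 and 6.38, and Zfp664 121, 170 and 177 against 92.9, 70.7 and 78.6. Zfp296 was 199, 143 and 163 FPKM against 576, 720 and 585. In each of these the groups did not overlap. The oocyte and zygote markers were at 682 to 820 FPKM in siRfx1 against 356 to 421 in siCtrl, and their part was not tested. The count was 0 without any 1 of the siCtrl libraries and 7 without the first or the second siRfx1 library.

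The other knockdowns gave 0 members against siCtrl by limma. For siEtv5 0% of 8993 genes were called in zygotes (27 members at an unadjusted p under 0.05) and 0.251% of 11137 in 2-cell embryos (40 members). For siRfx1 zygotes 0.0557% of 8983 genes were called (17 members), and for siMlx 2-cell embryos 0.00945% of 10584 (30 members). The KRAB medians against siCtrl were -0.33 in siEtv5 zygotes and 0.40 in siEtv5 2-cell embryos, and 0.30 and -0.27 in siMlx. These comparisons share the siCtrl libraries, and nothing is read from the medians.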

How the data were processed

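RNA-seq of harvested blastomeres gave 23 libraries in 8 groups. The authors aligned reads to mm9 with STAR (2.5.2b) and quantified RefSeq transcripts with StringTie (1.3.3b in the file headers, 1.3.4 in the submitters' notes and a later version in the methods), with no strand option in the file headers. The deposited values used are the FPKM of each transcript per the file headers, not counts. They were summed over 29306 transcripts to 22619 genes, and 976 transcripts without a gene name (0.610 to 1.48% of FPKM) were left out. The members, lists and rules were chosen with earlier results of these data known.

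Within each comparison, library scale was set by median ratios of genes reaching 1 FPKM in every library, which makes changes relative. Genes averaging 1 FPKM or more entered limma 3.58.1 (R 4.3.3) as log2(FPKM + 1), with the trend option and the compared groups alone. Calls needed an adjusted p (Benjamini-Hochberg) below 0.05 and more than a 2-fold difference. A stage difference between knockdowns was fitted as an interaction. Whether every library of a group lay above or below another group was read from FPKM as deposited, without rescaling. Of the 16 comparisons, 9 held no siCtrl library and 7 did. Tables were handled in Python 3.11.15 with pandas 2.3.3. The fit was tested on simulated data.

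Members named were the 8 with the highest mean in each siCtrl stage, the 10 largest rises and falls called in both siEtv5 and siMlx, up to 5 each way called in each other comparison (the 2 lowest p-values where none was called without siCtrl), up to 3 of each list and the members of runs. Zfp445, the rest of the 15 and 9 members whose stage changes differed, and the E-box pairs were named after their values were seen. Coding features came from the GENCODE M1 coding models of the mm9 assembly, and promoters from RefSeq on GRCm38.p6. Depth limits the number of reads only, since the amplified cDNA has no molecular identifiers. Same-numbered libraries were checked for pairing and did not deviate together consistently.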

Additional observations from a re-analysis of the deposited data

Results flagged for a closer look

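The stage change differed between knockdown groups by the test of the difference itself (limma interaction). Relative to siEtv5, the siMlx change was lower by these log2 values: -3.25 for Zfp708, -3.06 for Zfp51, -3.003 for Zfp352, -2.91 for Zfp930 and -2.91 for Zfp735. The siRfx1 change was lower for Zfp943 (-3.38), Zfp708 (-3.20), Zfp54 (-2.99), Zfp30 (-2.97) and Zfp160 (-2.89) and higher for Zfp652 (4.20) and Zfp609 (2.35). Zfp30 passed the level filter only through siEtv5. Each call is lost in at least 1 of the settings tried, and the siEtv5 2-cell group has 2 libraries. No group had 4 or more libraries, so no set search for outlying libraries was run. The second siEtv5 zygote library, singled out in the next section, was picked after the data were seen.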

How the results depend on the processing

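No named member changed direction. The call was lost in 94 of 191 settings tried on the 12 named differences of stage changes and in 7 of 530 on the 50 named stage changes. Without rescaling, siRfx1 against siCtrl in 2-cell embryos went from 3 higher and 1 lower to 1 higher and 17 lower. Counts of members called in the stage change ran, over pseudocount 0.1, no level filter, no rescaling, all groups in a single fit and a replicate block, from 114 to 132 in siEtv5 (127 reported), 135 to 142 in siMlx (142), 99 to 147 in siRfx1 (113) and 136 to 150 in siCtrl (148). Leaving out 1 library gave 75 to 134, 123 to 139, 74 to 125 and 134 to 146. The difference of the siMlx and siEtv5 stage changes (15) gave 8 at pseudocount 0.1, 8 with the replicate block and 0 to 34 without a library. That of siRfx1 and siEtv5 (9) gave 16, 24, 32 and 36 at pseudocount 0.1, no filter, no rescaling and all groups, 0 with the replicate block and 0 to 33 without a library. siMlx against siEtv5 gave 4 with the replicate block in zygotes (0 to 29 without a library) and, in 2-cell embryos, 7 with all groups and 26 with the replicate block (0 to 0). siRfx1 against siEtv5 in 2-cell embryos gave 5, 14, 9 and 61 at pseudocount 0.1, no filter, no rescaling and all groups (0 to 2), and in zygotes 0 throughout. Against siCtrl, siMlx zygotes (13) gave 1 with no filter and 0 with all groups (0 to 17), siMlx 2-cell embryos 7 with all groups (0 to 2), and siRfx1 2-cell embryos (4) gave 8, 0, 18 and 65 in the same order and 0 with the replicate block (0 to 7). siEtv5 zygotes gave 0 to 3 without a library. The cause was not tested, except that a replicate block or a missing library leaves fewer degrees of freedom. Replicate numbers did not pair the libraries, with same-number correlations between -0.379 and 0.273. The second siEtv5 zygote library stood apart from the other 2. Without it, chosen after seeing the data, the KRAB median of siMlx against siEtv5 zygotes as deposited went from 0.47 to 0.63 and that without the pattern from -0.36 to -0.43.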
